A study of Mus musculus with 2 samples.

Results

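Mitosis and chromosome segregation genes were compared between the distal and the proximal side of organoids made from mouse limb mesenchyme. The set was a fixed list of 52 symbols of genes that act in G2 phase or in mitosis, chosen by function, with earlier results of these data known. A row was found for 51 of them among the 13916 protein-coding genes of the authors' deposited table, and Kif20a was not analysed here. The organoids were grown from embryonic limb mesenchymal cells of Slc:ICR mice for 48 h in medium with Fgf8b and Wnt3a. Per the labels, 5 organoids from 4 cultures were frozen on day 2 and cut at 10 µm, and both groups share this strain, medium and time. Photo-isolation chemistry primes reverse transcription inside the section with light-caged primers, so that only the areas lit with ultraviolet light (365 nm for 3 min) yield a library. Each side gave 1 library that joins 5 regions with barcodes of their own, so that an effect of the side and an effect of the library cannot be told apart. A region holds many cells, and fewer dividing cells and less RNA per cell cannot be told apart either.

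Entry into mitosis is driven by the kinase Cdk1 bound to A-type and B-type cyclins. The chromosomes are then compacted by condensin, attached to the spindle through the kinetochores and watched by the spindle checkpoint, until the anaphase promoting complex marks securin and cyclin B for destruction and the sister chromatids separate. Most of these genes are transcribed in a burst in G2 phase, so that their RNA is a common measure of how much of a tissue is dividing. In the limb bud, proliferation of the mesenchyme under the ectodermal ridge is part of outgrowth, and Fgf8 is a signal of that ridge.

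The upstream sequence of the genes is shown first, as a feature that the choice by function did not use. Promoter windows from 250 bases before to 50 bases after the transcription start were found in RefSeq (GRCm38.p6) for 45 of the 52 genes. Late cell cycle genes are known to carry the cell cycle genes homology region (CHR), bound by the DREAM and MuvB complexes, and CCAAT boxes, bound by NF-Y. The CHR letters TTTGAA, read on both strands, were in the window of 33 of the 45 mitosis genes (73.3%), against 20.2% of all 27025 genes with a window and 14.7% of the 10989 of them in the authors' deposited table. Within 50 bases of the start they were found in 30 of the 45 (66.7%), against 5.72% of all genes and 3.81% of table genes. The CHR variant TTTAAA was in 10 of the 45 windows (22.2%), against 14.9% of all genes and 11.8% of table genes. CCAAT was in 33 of the 45 (73.3%), against 41.1% of all genes and 43.01% of table genes, and 28 genes held both TTTGAA and CCAAT. The E2F letters TTTCGCGC, TTTGGCGC or GCGGGAAA were found in 5 of the 45 (11.1%), against 2.12% of all genes and 3.77% of table genes. Motif matches shared bases, those of 1 motif on both strands included, in 2 of the 48 windows of mitosis genes. The 33 genes with TTTGAA had a median of 0.16 for the log2 change of the authors' deposited table and the 12 without it a median of 0.01, which is given as a description and was not tested.

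**Figure D1:**
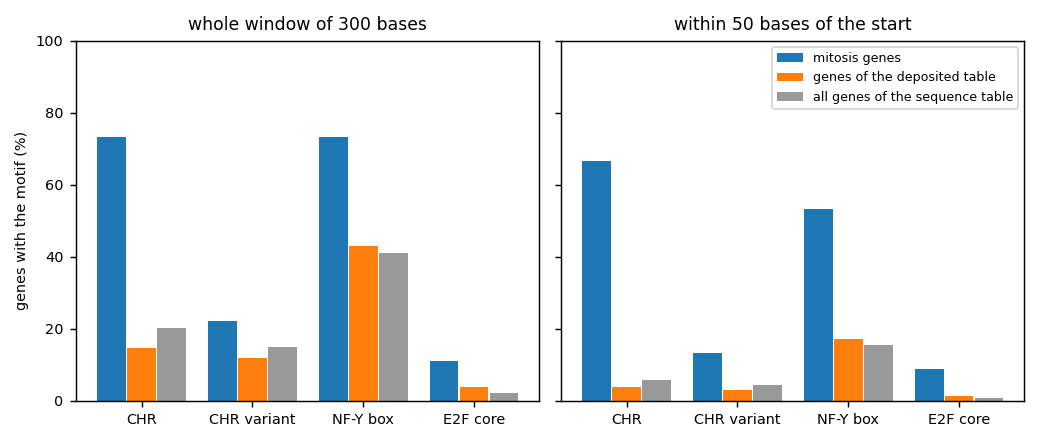
Share of genes (y axis, percent) whose promoter window holds each motif (x axis), for the mitosis genes, the genes of the authors' deposited table and all genes with a window in RefSeq. The left panel covers the whole window and the right panel the bases within 50 of the start. The NF-Y box is CCAAT. The mitosis genes stand at 73.3% for the CHR in the left panel and at 66.7% in the right panel, where all genes stand at 5.72%.

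The 250 bases before the start are shown 5′ to 3′ for 6 genes on GRCm38.p6. Kif11 and Kif20b had the lowest p-values among mitosis genes on the distal side, Aspm and Bub1 those on the proximal side, and Top2a and Ube2c the highest means. Capitals mark the CHR, its variant and the CCAAT box on either strand.
Kif11, chr19:37376132-37376381, plus strand: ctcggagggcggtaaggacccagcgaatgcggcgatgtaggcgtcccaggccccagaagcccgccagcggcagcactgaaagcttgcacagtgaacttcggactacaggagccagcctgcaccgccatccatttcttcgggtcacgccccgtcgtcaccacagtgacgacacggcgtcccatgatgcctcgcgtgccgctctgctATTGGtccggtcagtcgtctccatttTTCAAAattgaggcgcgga
Kif20b, chr19:34922108-34922357, plus strand: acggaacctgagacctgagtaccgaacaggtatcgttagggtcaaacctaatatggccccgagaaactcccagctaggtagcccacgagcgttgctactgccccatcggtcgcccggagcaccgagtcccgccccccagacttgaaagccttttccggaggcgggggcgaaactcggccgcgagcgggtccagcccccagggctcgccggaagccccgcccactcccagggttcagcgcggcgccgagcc
Aspm, chr1:139454523-139454772, plus strand: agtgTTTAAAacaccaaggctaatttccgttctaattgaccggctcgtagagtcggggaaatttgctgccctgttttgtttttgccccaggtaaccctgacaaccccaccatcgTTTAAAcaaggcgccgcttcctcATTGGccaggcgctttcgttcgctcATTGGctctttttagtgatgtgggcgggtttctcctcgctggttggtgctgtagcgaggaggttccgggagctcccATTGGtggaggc
Bub1, chr2:127831860-127832109, minus strand: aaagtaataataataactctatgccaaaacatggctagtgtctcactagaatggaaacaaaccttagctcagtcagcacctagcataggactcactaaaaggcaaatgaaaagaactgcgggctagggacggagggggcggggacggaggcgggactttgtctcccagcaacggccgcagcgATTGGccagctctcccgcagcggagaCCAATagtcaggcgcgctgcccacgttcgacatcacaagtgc
Top2a, chr11:99024190-99024439, minus strand: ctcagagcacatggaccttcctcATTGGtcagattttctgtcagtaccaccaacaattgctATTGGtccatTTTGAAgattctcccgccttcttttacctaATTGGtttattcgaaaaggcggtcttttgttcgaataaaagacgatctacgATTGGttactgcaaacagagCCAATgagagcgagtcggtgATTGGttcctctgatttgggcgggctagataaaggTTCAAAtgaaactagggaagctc
Ube2c, chr2:164769679-164769928, plus strand: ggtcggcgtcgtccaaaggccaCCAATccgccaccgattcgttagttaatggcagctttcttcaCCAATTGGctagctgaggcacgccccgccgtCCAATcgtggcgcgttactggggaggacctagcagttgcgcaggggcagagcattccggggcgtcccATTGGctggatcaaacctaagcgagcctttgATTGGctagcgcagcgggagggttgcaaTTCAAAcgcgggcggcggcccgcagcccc
Kif11, Top2a and Ube2c each showed the arrangement of a CCAAT box followed by a CHR close to the start, with the CHR beginning at bases -19, -23 and -29. Kif20b held no match in the stretch shown and 2 copies of TTTGAA after the start, at bases 8 and 14, and Aspm had its TTTGAA at base 7 after the start. Bub1 held 2 CCAAT boxes and no CHR. A match is a description of the letters and not evidence of binding.

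Depth was thin and uneven. Size factors, the relative depth of each region, ranged from 0.329 to 0.832 in the distal regions and from 1.5 to 2.42 in the proximal regions, so the proximal side was sequenced 3.3 times as deeply. Size factors times the summed mean of all genes give 46988 to 118970 computed counts for a distal region. For a proximal region they give 214760 to 345625. Limb mesenchyme markers were present on both sides, with Prrx1 at computed levels of 141 distal and 177 proximal normalized counts and Twist1 at 71.8 and 76.2. Summed over 8 such markers the levels were 560 and 548, and 4 were called in the authors' deposited table, Msx1 and Lhx2 higher in distal and Pdgfra and Tbx5 higher in proximal. Skeletal muscle markers had summed levels of 12.3 distal and 121 proximal, and 5 of the 10 were called, all higher in proximal (Actc1, Myl1, Tnnt1, Myog and Acta1). Cartilage markers (4 of 5 with a row) summed to 1223 and 831, of which Sox9 alone made 842 and 522. Sox9 was called as higher in distal. Acan went the other way, at 2.23 distal and 6.63 proximal, with a log2 change of -1.57 ± 0.74 (SE), and was not called. Col2a1 and Col9a1 had log2 changes of 0.57 ± 0.48 (SE) and 0.14 ± 0.20 (SE), neither called. Markers of surface ectoderm (4 of 8 with a row, summed levels of 0.992 distal and 0.619 proximal), endothelium (4 of 6, 2.33 and 0.699) and blood (1 of 7, 0.421 and 0.858) were near 0. The part of the muscle and cartilage differences in the values of the mitosis genes was not tested.

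In the authors' deposited table, where a gene is called at an adjusted p under 0.05, none of the 51 mitosis genes was called, against 0.977% of all genes (0.395% as higher in distal and 0.582% as higher in proximal). The lowest adjusted p among them was 0.284. Both sides come from the same 5 organoids and 4 cultures as far as the labels say, so regions may share an organoid or a culture, and the p-values, standard errors and region SDs here take the regions as unrelated. At an unadjusted p under 0.05 there were 2 genes, Kif11 and Kif20b, which is 3.92% of the set against 6.07% of all genes. Both were higher in distal, as were 2.56% of all genes, and 0 were higher in proximal, as were 3.51% of all genes, in the authors' deposited table. Set beside the genes with a mean of at least 10 normalized counts, where 36 of the 51 lie, the shares of all genes were 3.03% by adjusted p and 12% by unadjusted p. The log2 changes lay close together: 31 of 51 were within 0.25 of 0 and 45 within 0.5. By the authors' deposited table, log2 changes above 0 numbered 35 of the 51, and the median was 0.11. Of all genes 54.5% were above 0 with a median of 0.07, and where the mean was at least 10 the share was 50.6% and the median 0.0047. The 4312 genes with a mean under 1 raise the values for all genes, with 71.3% above 0 and a median of 0.63. The lowest mean of a mitosis gene was 1.2.

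The small median held across depth. Among the 14 mitosis genes with a mean of at least 30, 12 had a log2 change above 0 and the median was 0.13, against 55.1% of all such genes and a median of 0.03 in the authors' deposited table. For the 22 genes with a mean from 10 to 30 the median was also 0.13, with 14 above 0, against 48.7% and a median of -0.01 for all genes of that range. In the 15 with a mean from 1 to 10 the median was 0.11, with 9 above 0, against 44.7% and a median of -0.08. Summed over the 51 genes, the computed counts made up 0.875% of the distal counts (95% Wilson interval 0.847 to 0.903%) and 0.815% of the proximal counts (0.80 to 0.830%). The distal share was 1.07 times the proximal share. These intervals cover counting error only, and with 1 library a side there is no replicate against which the ratio can be tested.

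**Figure D2:**
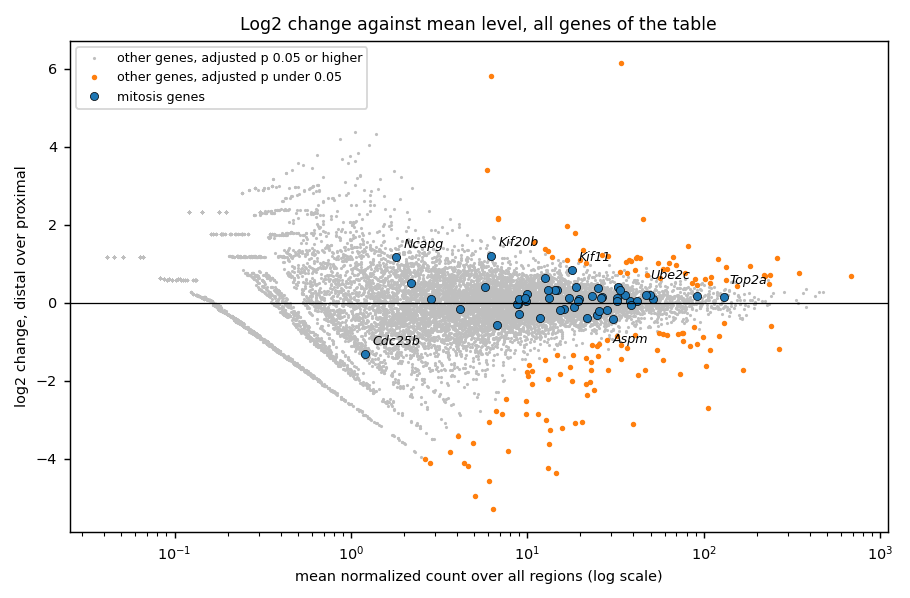
Log2 change of distal over proximal (y axis) against the mean normalized count (x axis, log scale) for all genes of the authors' deposited table. Grey points are genes not called, orange points the genes with an adjusted p under 0.05 and blue circles the 51 mitosis genes. No blue circle is called, and 45 of the 51 lie within 0.5 of 0. Their quartiles are -0.08 and 0.27, against -0.20 and 0.22 for all genes with a mean of at least 10.

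How large a difference could have been missed was read from the standard errors, which hold no spread between libraries. The 95% interval of the log2 change lay wholly between -1 and 1, a 2-fold change either way, for 32 of the 51 genes. It reached past one or both of these limits for the other 19, past both for 4 (Cdc25b, Cks2, Cdc20 and Prc1), and it held 0 for 49. The smallest statistic of any called gene in the authors' deposited table was 3.5. At that limit a mitosis gene would have needed a log2 change of at least 0.58 (Ube2c) to 4.8 (Cdc25b) to be called, with a median of 1.14. Counting error alone accounted for a median of 48.2% of the squared standard error among the 36 genes with a mean of at least 10, and for 54.9% among all such genes. The rest is the spread between regions that the authors' model fitted, a median coefficient of variation of 19.6% for the mitosis genes and 21% for all genes.

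**Figure D3:**
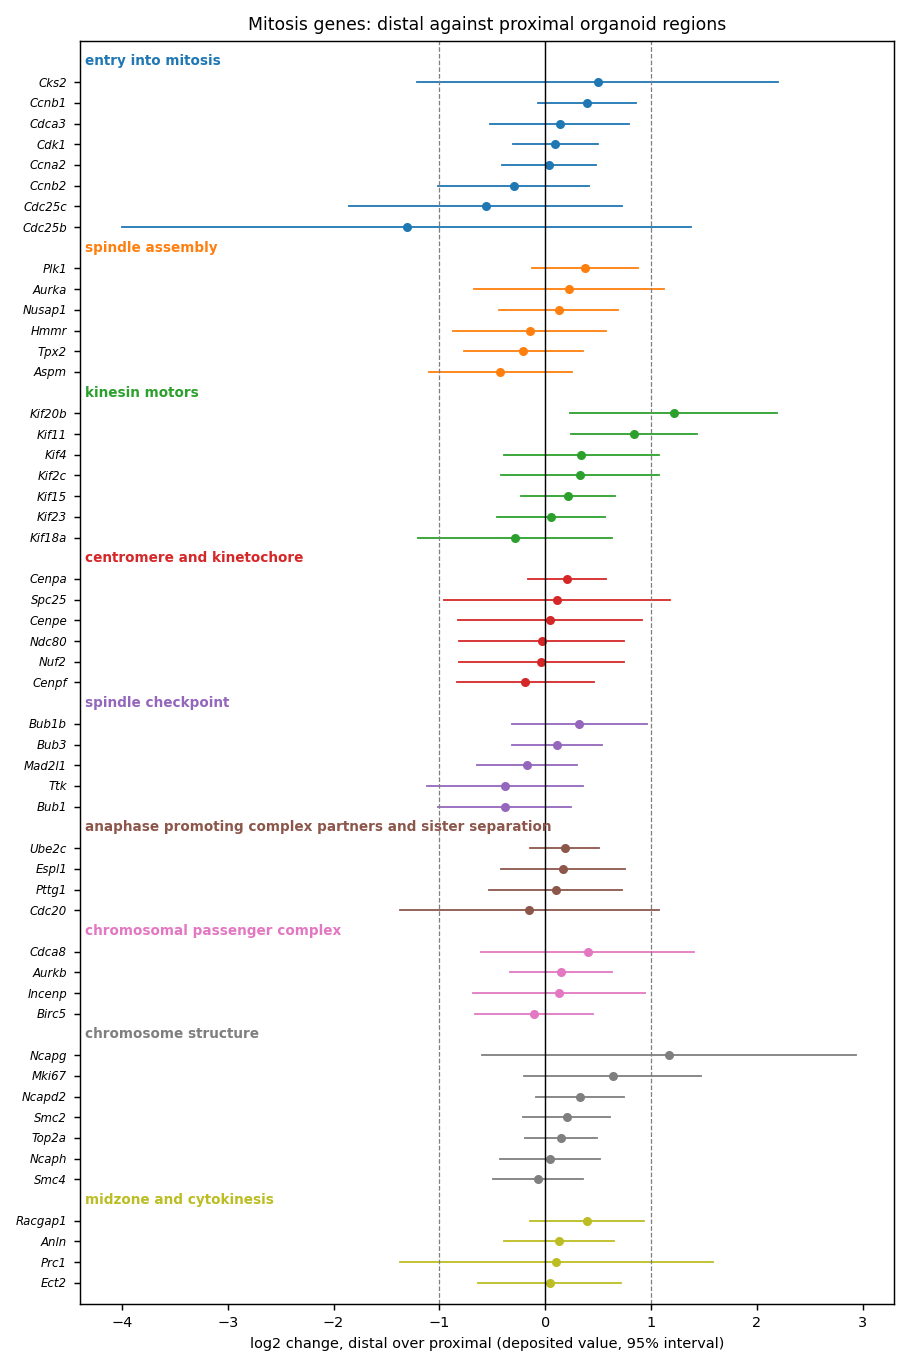
Log2 change of distal over proximal in the authors' deposited table (x axis, point) with its 95% interval (line) for the 51 mitosis genes (y axis), grouped by role. Dashed lines mark a 2-fold change either way. Only the intervals of Kif20b and Kif11 leave out 0, and 32 intervals lie between the dashed lines.

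Kinesin motors held both genes with an unadjusted p under 0.05. Of the 7 with a row, 6 had a log2 change above 0 (median 0.33 in the authors' deposited table). When centred on the median of all genes it was 5 of 7, without Kif23. Centred instead on the median of genes above the median mean, 0 of the 51 mitosis genes changed sign, in this role or any other. Kif11 (Eg5, ENSMUSG00000012443, chr19:37376403-37421859 on GRCm38) is the motor that pushes the spindle poles apart. Its computed levels were 22.9 distal and 12.8 proximal normalized counts, from about 67.1 and 124 counts. The authors' deposited table gave it a log2 change of 0.84 ± 0.30 (SE), a 1.79-fold difference (95% interval 1.19 to 2.70), an unadjusted p of 0.00551 and an adjusted p of 0.284. Kif20b (ENSMUSG00000024795, chr19:34922361-34975745), a motor of the central spindle and of cytokinesis, stood at 8.75 and 3.77. Its row in the authors' deposited table reads 1.21 ± 0.50 (SE) for the log2 change, 0.0152 for the unadjusted p and 0.509 for the adjusted p. Both therefore missed the limit on the adjusted p.

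For Kif20b the counts of each region could be recovered. The 5 distal regions, in falling order of depth, held 7, 5, 7, 5 and 2 counts, which are 8.41, 7.16, 12.5, 9.80 and 6.09 normalized counts (mean 8.80 ± 2.5, SD, n = 5 regions). The 5 proximal regions held 15, 9, 6, 1 and 7 counts, or 6.20, 4.07, 3.07, 0.638 and 4.66 normalized counts (mean 3.73 ± 2.07, SD, n = 5 regions). The sides overlapped in 1 region each: the lowest distal region lay just under the highest proximal one, and the other 4 distal regions lay above all proximal regions. Leaving out 1 region at a time, with the fitted spread between regions held fixed, moved the log2 change between 0.97 and 1.5. Kif20b was among the genes with the lowest p of the set, and regions of 1 side share a library. The range is therefore a description and not a test.

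The other kinesins differed by less. Kif15, which can back up Kif11, had computed levels of 38.2 distal and 33.0 proximal, with a log2 change of 0.21 ± 0.23 (SE) in the authors' deposited table. Kif4, a chromosome-bound motor, stood at 16.1 and 12.7, and Kif2c, which takes microtubules apart at the centromere, at 16.4 and 13.1. Kif23, the motor of the centralspindlin complex, had nearly the same level on both sides, 42.9 distal and 41.2 proximal. Kif18a, which dampens chromosome movements, had the lowest log2 change of the kinesins, at -0.28 ± 0.47 (SE) in the authors' deposited table.

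The genes of mitotic entry gave log2 changes on both sides of 0, 5 of 8 above it (4 of 8, without Ccna2, when centred on the median of all genes), with a median of 0.07 in the authors' deposited table. Cdk1 stood at 53.1 distal and 49.7 proximal normalized counts, a log2 change of 0.10 ± 0.21 (SE) with a 95% interval from -0.31 to 0.50. Ccna2, the cyclin of S and G2 phase, stood at 38.9 and 37.8 and is among the genes least different between the sides. The B-type cyclins differed in sign: Ccnb1 stood at 37.4 distal and 28.4 proximal and Ccnb2 at 22.2 and 27.3. The authors' deposited table has them at log2 changes of 0.40 ± 0.24 (SE) and -0.30 ± 0.36 (SE), neither called. The difference between the 2 cyclins was not tested. Cdca3, a mitotic entry factor, stood at 14.0 and 12.7.

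The remaining entry genes were thin, and their region counts were recovered. Cdc25c, a phosphatase that activates Cdk1, had 0, 7, 0, 2 and 5 distal counts and 15, 26, 7, 16 and 10 proximal counts. In normalized counts the distal regions ran from 0 to 15.2 and the proximal ones from 3.58 to 11.8, so the distal side held both the lowest and the highest region. Its log2 change was -0.56 ± 0.66 (SE) in the authors' deposited table. Cdc25b, a second such phosphatase, had 2 distal counts, both in 1 region, and 18 proximal counts in 4 of 5 regions. The ratio of distal to proximal from these counts was 0.366, with an exact interval of 0.0412 to 1.53 that covers counting error only. Cks2, a small binding partner of Cdk1, had 7 distal and 17 proximal counts, a ratio of 1.36 (0.476 to 3.44).

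Spindle assembly genes were evenly split, with 3 of 6 above 0. Plk1, the kinase that acts from centrosome maturation to cytokinesis, stood at 28.5 distal and 21.9 proximal, a log2 change of 0.38 ± 0.26 (SE) in the authors' deposited table. Aurka, the kinase of the spindle poles, stood at 10.7 and 9.19, while its activator Tpx2 stood at 23.6 and 27.3. Aspm, a spindle pole protein, had the lowest log2 change among mitosis genes with a mean of at least 30, -0.42 ± 0.35 (SE) in the authors' deposited table, from levels of 26.2 distal and 35.1 proximal. Hmmr, a microtubule-binding protein, stood at 15.3 and 16.9 and Nusap1, which bundles microtubules, at 17.9 and 16.4. None of these differences was larger than 2 standard errors.

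Centromere and kinetochore genes had 3 of 6 log2 changes above 0 (2 of 6, without Cenpe, when centred on the median of all genes), and they ran from -0.19 to 0.20 in the authors' deposited table. Cenpa, the centromeric histone H3 variant, stood at 52.8 distal and 45.9 proximal, with a log2 change of 0.20 ± 0.19 (SE). Ndc80 and Nuf2, partners in the complex that grips the microtubule, gave almost the same values, 8.79 and 8.65 distal and 9.01 and 8.87 proximal. Spc25, from the same complex, stood at 9.32 and 8.63, Cenpe, a kinetochore motor, at 10.0 and 9.69 and Cenpf, a large kinetochore protein, at 14.4 and 16.4. Their intervals were wide, with Spc25 running from -0.95 to 1.18.

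The spindle checkpoint was the role with the lowest median, -0.17 in the authors' deposited table, with 2 of 5 genes above 0. Bub1 and Ttk, the kinases at its head, stood at 18.9 and 10.2 distal and 24.6 and 13.3 proximal normalized counts. By the authors' deposited table both had a log2 change of -0.38, ± 0.32 (SE) for Bub1 and ± 0.38 (SE) for Ttk. Mad2l1, which holds Cdc20 inactive, stood at 26.8 and 30.2. Bub1b (BubR1) pointed the other way at 14.6 and 11.7, and Bub3 stood at 33.7 and 31.1. None of the 5 had an unadjusted p under 0.05.

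Of the genes that trigger anaphase, 3 of 4 had a log2 change above 0. Ube2c, the ubiquitin-conjugating enzyme of the anaphase promoting complex, stood at 97.9 distal and 86.0 proximal, a log2 change of 0.19 ± 0.17 (SE) in the authors' deposited table. Its interval, -0.14 to 0.51, did not reach a 2-fold difference, but it holds no spread between libraries and so cannot exclude one. Pttg1 (securin) stood at 20.4 and 19.0 and Espl1 (separase, the protease that securin restrains) at 24.8 and 22.1. Cdc20, the activator of the complex, was covered thinly: the 5 distal regions held 2, 5, 2, 3 and 0 counts and the 5 proximal regions 9, 14, 3, 10 and 7. Its normalized counts were 3.80 ± 2.83 distal and 4.53 ± 2.02 proximal (SD, n = 5 regions a side), and the proximal regions, from 1.53 to 6.38, all lay within the range of the distal ones, from 0 to 7.16.

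In the chromosomal passenger complex, which corrects faulty attachments and then directs cytokinesis, the kinase Aurkb stood at 27.9 distal and 25.1 proximal and its scaffold Incenp at 10.1 and 9.23. Birc5 (survivin) stood at 17.8 and 19.1. Cdca8 (borealin) had 7, 5, 1, 6 and 1 distal counts and 13, 13, 5, 12 and 6 proximal counts, with means of 6.43 ± 4.06 and 5.09 ± 1.93 normalized counts (SD, n = 5 regions a side). The spread between distal regions was larger than the difference between the sides.

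**Figure D4:**
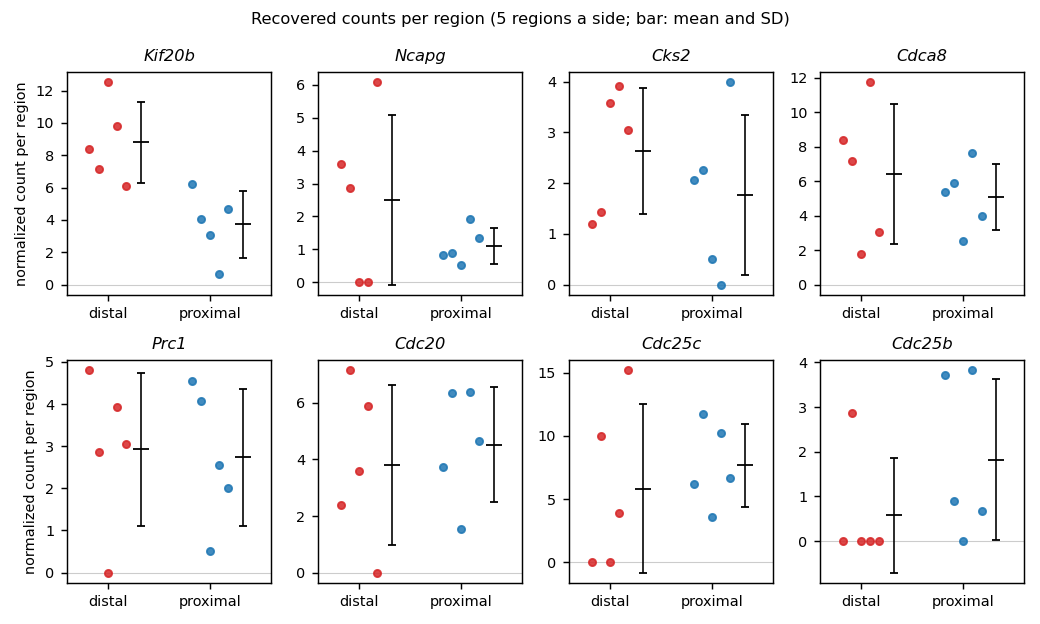
Normalized counts in each of the 5 distal and 5 proximal regions (y axis, points) for the 8 mitosis genes whose region counts could be recovered, with the mean and SD beside the points. The sides overlap in all 8 genes; for Kif20b they meet only where the lowest distal region, at 6.09, lies under the highest proximal region, at 6.20.

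Genes of chromosome structure were above 0 in 6 of 7 cases (5 of 7, without Ncaph, when centred on the median of all genes), with a median of 0.20 in the authors' deposited table. Top2a, the topoisomerase that untangles sister chromatids, had the highest mean of the set and stood at 137 distal and 124 proximal, a log2 change of 0.15 ± 0.17 (SE) with an interval of -0.19 to 0.49. Mki67, the coat protein of mitotic chromosomes known as a proliferation marker, stood at 15.3 and 9.84, a log2 change of 0.64 ± 0.43 (SE) with an unadjusted p of 0.134 in the authors' deposited table. Its interval ran from -0.20 to 1.47, so neither equal levels nor a 2-fold difference could be set aside at this depth. Among condensin subunits, Smc2 stood at 50.2 and 43.6, Smc4 at 38.1 and 39.9, Ncapd2 at 37.5 and 29.8 and Ncaph at 33.0 and 31.9. Ncapg, another condensin subunit, had 3, 2, 0, 0 and 2 distal counts and 2, 2, 1, 3 and 2 proximal counts. Its ratio of 2.31 from these counts had an exact interval of 0.746 to 6.72, and 2 distal regions were at 0.

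Midzone and cytokinesis genes had 4 of 4 log2 changes above 0, though that of Ect2 falls below 0 when values are centred on the median of all genes. Racgap1, the partner of Kif23 in centralspindlin, stood at 21.4 distal and 16.3 proximal, a log2 change of 0.40 ± 0.27 (SE) in the authors' deposited table. Anln, the contractile ring scaffold, stood at 27.3 and 25, and Ect2, which switches on the GTPase RhoA, at 19.7 and 19.2. Prc1, which bundles midzone microtubules, had 4, 2, 0, 2 and 1 distal counts and 11, 9, 1, 4 and 3 proximal counts, with a ratio of 1.06 (0.440 to 2.31).

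The rest of the mitotic machinery was examined in 5 further lists, of which 105 genes had a row. None was called in the authors' deposited table, against 0.977% of all genes, and 4 had an unadjusted p under 0.05, against 6.07%. At a mean of at least 10 these shares of all genes were 3.03% and 12%. The median log2 change was 0.02 with 57 of 105 above 0, against 0.07 and 54.5% for all genes, values raised by genes with a mean under 1. At a mean of at least 10 the median was also 0.02, with 27 of 52 above 0, against 0.0047 and 50.6%. The anaphase promoting complex and its inhibitors had 0 of 16 genes at an unadjusted p under 0.05, and its subunits Anapc10, Anapc5 and Anapc2 had the lowest p and were listed by the authors' deposited table at 0.66, 0.34 and -0.38 on the log2 scale. Cohesin and its regulators had 1 of 15, Sgo2a, which protects centromeric cohesion, at -0.78 ± 0.39 (SE) in the authors' deposited table. The cohesin subunit Smc3 and the acetyltransferase Esco2 followed at 0.51 and 0.50, neither past that limit. Other centromere and kinetochore genes had 2 of 31, Spc24 at 1.04 ± 0.45 (SE) and Cenpt at -0.90 ± 0.46 (SE) in the authors' deposited table, followed by Cenpk at 0.48. Spc24 binds Spc25, which had a log2 change of 0.11 ± 0.54 (SE), and the difference between the 2 partners was not tested. Other spindle, kinesin, cytokinesis and condensin genes had 1 of 30, Dlgap5, a spindle microtubule protein, at 0.94 ± 0.38 (SE) in the authors' deposited table, and Ckap2, a microtubule-associated protein, was at -0.47. In that list Kif14, a motor of cytokinesis, did not pass either, with 1, 2, 2, 0 and 2 distal counts and 17, 17, 5, 7 and 14 proximal counts and a log2 change of -1.34 ± 0.70 (SE) in the authors' deposited table.

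Genes that control mitotic entry and its transcription had 12 of 13 log2 changes above 0 and a median of 0.27 in the authors' deposited table, with 0 at an unadjusted p under 0.05. For all genes the share above 0 was 54.5%, the median 0.07 and the share at such a p 6.07%. At a mean of at least 10 these were 50.6%, 0.0047 and 12%. In that range 5 of 5 genes of the list were above 0, with a median of 0.26. Mybl2 (B-Myb), a factor that binds the MuvB complex, had 1, 7, 2, 3 and 0 distal counts and 3, 4, 2, 5 and 2 proximal counts and a log2 change of 1.37 ± 0.73 (SE) in the authors' deposited table. Arpp19, an inhibitor of the phosphatase PP2A, was at 0.34 ± 0.21 (SE). Foxm1, the forkhead factor of G2 genes, was at 0.53 ± 0.38 (SE), with computed levels of 10.9 distal and 7.54 proximal.

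Replication and G1 genes were set beside the mitosis genes. Of 40 DNA replication and S phase genes, 38 had a log2 change above 0 in the authors' deposited table, and the median was 0.47. An unadjusted p under 0.05 was found for 10, and 1 was called. The called gene was the helicase subunit Mcm6, at 1.07 ± 0.24 (SE) with an adjusted p of 0.00199 by the authors' DESeq2-format fit. For all genes the shares were 54.5% above 0, 6.07% by unadjusted p and 0.977% called. At a mean of at least 10 they were 50.6%, 12% and 3.03%. The median for mitosis genes in the same table was 0.11, and the difference between the 2 lists was not tested. The summed levels of the S phase genes were 896 distal and 664 proximal, a ratio of 1.35, against 1253 and 1163 and a ratio of 1.08 for the mitosis genes. Among 16 G1 cyclins, CDK inhibitors and pocket proteins, 2 were called, against 0.977% of all genes and 3.03% at a mean of at least 10. Log2 changes above 0 numbered 7 of the 16, with a median of -0.13. At a mean of at least 10 they numbered 6 of 8, with a median of 0.24. Both called genes were higher in distal, as were 0.395% of all genes. They were Ccnd2, a D-type cyclin, at a log2 change of 0.73 ± 0.13 (SE) and Cdk6, its kinase partner, at 1.23 ± 0.25 (SE) in the authors' deposited table. Their adjusted p in that DESeq2-format table were 1.85e-05 and 0.000263.

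**Figure D5:**
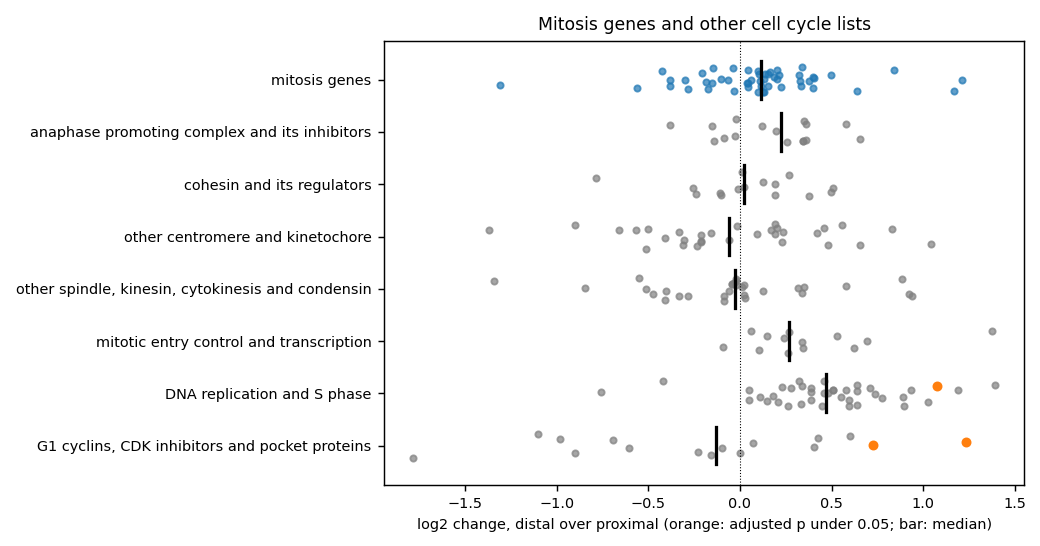
Log2 change of distal over proximal in the authors' deposited table (x axis) for each gene with a row in the mitosis list and in 7 other cell cycle lists (y axis). Bars are medians and orange points have an adjusted p under 0.05. The mitosis genes centre at 0.11 with none called, and the DNA replication and S phase genes at 0.47 with 1 called.

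Reads of some mitosis genes may not be theirs alone. No near-identical copy of the last 300 bases was found for any of the 51. By GENCODE M21, 12 overlap a coding gene on the opposite strand (Bub3, Ccna2, Cdc20, Cdc25b, Cdc25c, Cdca8, Kif18a, Kif4, Ncapg, Nusap1, Prc1 and Ube2c). Whether the counting used strand is not given in the sources used here, so their values are uncertain to that extent. Counting these 12, 29 of the 51 overlap any annotated gene. Some of these lie on the same strand, where counting by strand would not part them, such as a processed pseudogene in Kif11 and a miRNA gene in Kif20b, and whether such reads entered the counts was not tested.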

How the data were processed

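Reverse transcription in sections, lighting of regions and library making are as described per the labels' protocols. The file analysed is the authors' own comparison, with 1 row per gene. Per the file headers it has the DESeq2 format: a mean, which the authors deposited as a signal in normalized counts over all regions; a log2 change, distal over proximal, with its standard error, fitted by the authors; a statistic, deposited as a score; and p-values, deposited with and without adjustment. Per the submitters' processing notes the builds are mm10 and GRCm38, which name the same assembly; the aligner, counting and annotation are not given in the sources used here.

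The authors' tests are used as deposited, except in the alternatives, where p-values were recomputed and Kif20b was refitted without each region. A gene is called where the adjusted p that the authors deposited is under 0.05. The statistic equals the log2 change over its standard error to within 1.91e-06. Intervals are 95% normal intervals of the log2 change. The level of each side was computed from the mean and the log2 change, as 2 values with that mean and ratio, and multiplied by summed size factors to give computed counts. Size factors came from the lowest means, where 1 count in 1 region gives a fixed step, kept where 20 genes or more lay on it and lower steps did not add up to it. This gave 10 steps, refined on 2962 genes. Each region's side was read from the authors' contrast, as the log2 change of genes with 1 count there. For the 8 mitosis genes with a mean up to 7, all sets of region counts were searched for those that match the mean within 8e-09 and the fitted log2 change within 2e-05 at the deposited standard error, with fitted means held at or above 0.5. Each gave 1 set, as did 59 of 59 other genes with means from 1 to 3 on which the search was checked. Cdc20, Cdca8, Kif20b, Cdc25c and Kif14 have means above 3, outside the range of that check. The mean alone was matched by 257 sets for Cdc20, 2231 for Kif20b and 11652 for Cdc25c. The region numbers of the labels could not be assigned. The scripts were tested on simulated data.

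The members and gene lists were chosen with earlier results of these data known. Named are all members with a row, called genes of the pathway and comparison lists and up to 3 per pathway list by lowest p. Of the marker lists, the called genes, 2 defining markers and all cartilage markers with a row are named. Regions of 1 side share a library. The p-values rest on counting error and the spread between regions, and not on a spread between libraries. Copies were searched with BLAST 2.17.0 (the last 300 bases of coding transcripts, at least 200 bases at 95% identity). Protein motifs were not analysed here. Python 3.11.15, numpy 2.4.6, pandas 2.3.3, scipy 1.17.1 and matplotlib 3.10.9 were used. The alternatives were other limits and adjustments of p, centring of the log2 changes, minimum means, other summaries and leaving out genes or regions.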

Additional observations from a re-analysis of the deposited data

Results flagged for a closer look

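The region counts of the 8 recovered mitosis genes were screened for a region that stands apart from the other 4 of its side, over 16 sets of 5. The limit used marks about 1 set in 20 by chance for continuous values, a rate that does not hold for counts near 0. One set passed it: the highest distal region of Cdc25b, at 2.86 normalized counts from 2 counts, with the other 4 distal regions at 0, so that any count in the fifth would have passed.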

How the results depend on the processing

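The number of mitosis genes called was 0 under each of 6 alternatives: limits of 0.01 and 0.1 on the adjusted p, adjustment over all genes of the table or over those with a mean of at least 10, and centring on either median. The lowest adjusted p that a mitosis gene reached under any adjustment was 0.103, for Kif11. The median log2 change stayed between 0.05, centred on all genes, and 0.13, and the ratio of shares between 1.06 and 1.07. Centring on the median of all genes, 0.07, turned the sign of 5 small log2 changes (Ccna2, Ncaph, Kif23, Ect2 and Cenpe) and left 30 above 0 in place of 35. Centring on the median of genes above the median mean, -0.02, turned 0 signs and left 35 above 0. The other cell cycle lists had 3 calls under each of 5 alternatives. Without 1 region at a time, Kif20b ranged from 0.97 to 1.5. The counts above 0, the restriction to more than 3 computed counts, the regions left out and the centring of the other lists on all genes were chosen after seeing the data. Depth limits the distal side most. No paired analysis was possible because the labels do not tie regions to organoids and the recovered regions could not be matched to region numbers. Other count tests and size factors were not run, since the table holds no counts per region for most genes.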

Other observations

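The genes with the lowest p-values of the set, Kif11 and Kif20b, lie on the same chromosome, which was noticed after their values were seen. Of the 11 other genes of the authors' deposited table between them, 0 had an unadjusted p under 0.05, against 6.07% of all genes. A log2 change above 0 was found for 4 of the 11, against 54.5% of all genes, and the median was -0.25. Most of the 11 were thin, with means down to 0.045 (Htr7), so they could show little, and the interval as a whole was not tested. The 2 of them with a mean of at least 10, Tnks2 and Marchf5, lay on opposite sides of 0, at -0.44 ± 0.26 (SE) and 0.21 ± 0.29 (SE) in the authors' deposited table.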
